A study of Mus musculus with 12 samples.

Results

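The TNF superfamily genes were examined in bulk RNA-sequencing counts of 12 mouse brains collected 14 d post-stroke, 6 from recipients of *Tet2*-KO marrow and 6 from recipients of WT marrow. Members were taken by symbol: every gene named Tnfsf or Tnfrsf with a number, together with *Tnf*, *Lta*, *Ltb*, *Ltbr*, *Cd27*, *Cd40*, *Cd40lg*, *Cd70*, *Fas*, *Fasl*, *Ngfr*, *Eda2r* and *Edar*. Among the 49315 genes listed, 45 matched, and 37 had a total of at least 50 read counts over the 12 mice. The rule used only symbols and total counts, but it was set with earlier results of these data known.

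All 12 recipients were irradiated male CD45.1 Pep Boy mice with intact *Tet2*, whose heads were shielded during irradiation, and all had a transient occlusion of the right middle cerebral artery (MCAO). In both groups most of the transplanted bone marrow (BM) came from CD45.1 *Tet2*+/+ donors. A minority came from CD45.2 donors, which were *Tet2*-/- in the *Tet2*-KO group and *Tet2*+/+ in the WT group, a model of clonal hematopoiesis in which only part of the blood cells carry the mutation. *Tet2* itself ranged from 126 to 147 CPM (read counts scaled to library size by the TMM method) with WT marrow and from 117 to 137 CPM with *Tet2*-KO marrow, and since most cells carried intact *Tet2* its level in whole brain is no check of the labels. The groups follow the sample titles and genotypes, since the label for treatment reads control cells in both groups. Each mouse gave 1 library, and p-values refer to the spread between these mice.

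TNF superfamily ligands are mostly trimeric membrane proteins, some of which are cut from the cell surface and act as soluble cytokines. Their receptors recruit TRAF adaptors that activate NF-kB and MAP kinases, and those with a death domain can also start apoptosis or necroptosis. A few receptors are decoys that bind a ligand without signalling. In the brain after stroke, microglia and infiltrating myeloid cells are known sources of TNF, and lymphocytes and the cells that stimulate them use many of the other pairs.

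Total counts were 12000261 to 15340787 per WT mouse and 12625047 to 21049763 per *Tet2*-KO mouse, and the 37 genes held between 0.0266% and 0.058% of them. Counts between libraries of the same group differed by more than sampling noise, so none was a copy of another. Single mice stood apart for these genes. WT replicate 2 was the highest WT mouse in 22 of the 34 members tested, and *Tet2*-KO replicate 5 was the highest *Tet2*-KO mouse in 21 of 34. *Tet2*-KO replicate 1 was the lowest of its group in 21 of 34. Values without WT replicate 2 or *Tet2*-KO replicate 5 are given beside the results that rest on them.

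Levels are given as CPM and differences as log2 fold changes of *Tet2*-KO over WT. Of the 37 genes, 34 had enough counts for the test and 3 (*Tnfsf18*, *Fasl* and *Tnfrsf13c*) did not. The estimate was below 0 for 33 of the 34, against 47.7% of the 20290 genes tested, and the median log2 fold change was -0.57, against 0.01 for all genes. Of the 34, 18 were lower in the *Tet2*-KO mice at an unadjusted p below 0.05 and 0 were higher, where 12.2% of all genes were lower and 10.8% were higher. None passed 0.05 after adjustment over all genes in edgeR's quasi-likelihood test, which called 0.0246% of all genes lower, and the smallest adjusted p of a member was 0.104, for *Cd40*. Most members described have, beside the adjusted edgeR p, an exact two-sided permutation p for that gene alone. It is not adjusted for the number of genes and cannot go below 0.00216 with 6 mice against 6. None was computed for the marker and signalling genes.

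The number of calls depended on the test and on 1 mouse. DESeq2 called 6 members lower (3.71% of all genes) and limma-voom with sample weights called 10 (7.01%). Without *Tet2*-KO replicate 5 the edgeR test called 13 members lower, against 7.3% of all genes, and without both this mouse and WT replicate 2 it called 7, against 4.94%. Without a filter on low counts it called 1, *Cd40*, against 0.106%. *Cd40*, *Ltb*, *Tnf*, *Tnfrsf1b* and *Tnfrsf11a* were the 5 genes called by DESeq2, by limma-voom and by edgeR without *Tet2*-KO replicate 5. At an unadjusted p below 0.05 the count was 13 without WT replicate 2 (7.92% of all genes) and 23 without *Tet2*-KO replicate 5 (14.6%). Leaving out *Tet2*-KO replicate 1 gave 0 calls after adjustment and a median log2 fold change of -0.50. The estimates were then -1.11 for *Cd40*, -0.91 for *Tnf*, -1.065 for *Tnfrsf1b* and -0.62 for *Tnfrsf4*, the last farther from 0 than with all mice.

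**Figure D1:**
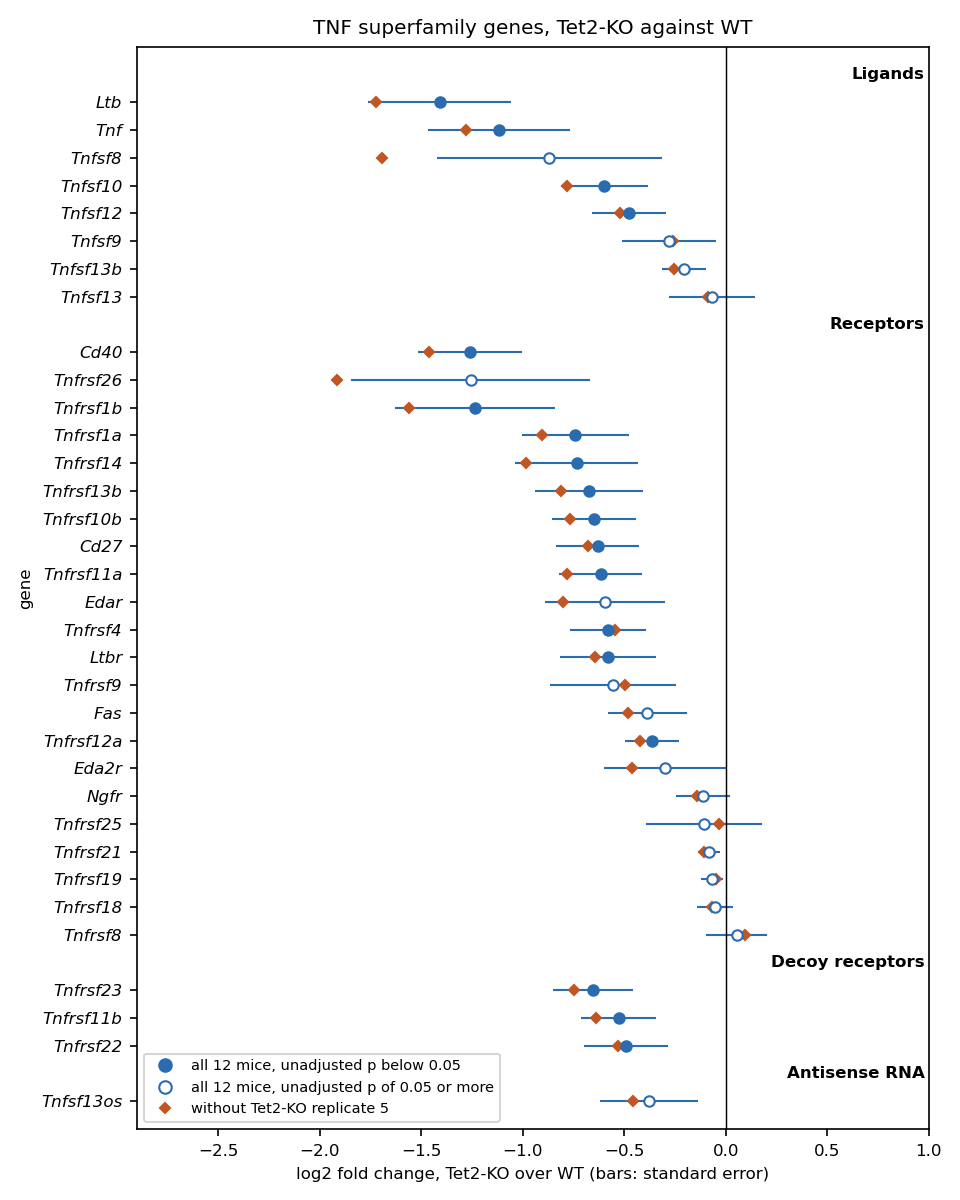
Log2 fold change (*Tet2*-KO over WT, x axis) of the 34 members tested (y axis), by role; circles and bars give the estimate from all 12 mice and its standard error, filled where the unadjusted p was below 0.05, and diamonds the estimate without *Tet2*-KO replicate 5. *Tnfrsf8* is the only circle to the right of 0, and no circle passed 0.05 after adjustment.

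Markers of some other cells differed between the same mice. At an unadjusted p below 0.05, the level used for the marker lists, 12.2% of all genes tested were lower and 10.8% were higher. All 6 monocyte and macrophage markers were lower in the *Tet2*-KO group at an unadjusted p below 0.05, with a summed level of 47.4 to 91.4 CPM in the WT mice and 4.46 to 59.3 CPM in the *Tet2*-KO mice. The highest mice of these ranges were WT replicate 2 and *Tet2*-KO replicate 5, the same mice that were highest for most members. At the same unadjusted level 6 of 7 activated phagocyte markers were lower (summed level 877 to 2145 CPM in WT, 66.1 to 1314 CPM in *Tet2*-KO), and of 8 homeostatic microglia markers 2 were lower (599 to 1068 CPM and 276 to 739 CPM).

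Of 7 neutrophil markers 3 could be tested and all 3 were lower, with the lowest median log2 fold change of the marker lists, -2.16, and a summed level of 5.95 to 15.1 CPM in WT and 1.69 to 4.79 CPM in *Tet2*-KO, without overlap. Among them *S100a9* and *S100a8*, calcium-binding proteins of neutrophils and monocytes, were the only markers in any list to pass after adjustment (log2 fold changes -2.84 ± 0.41 and -2.16 ± 0.31, adjusted p = 0.0364 for both in edgeR). The neutrophil markers too low for the test differed less. *Ngp* had a mean of 0.741 CPM in WT and 0.579 CPM in *Tet2*-KO, *Retnlg* of 0.576 and 0.509 CPM, and *Camp* of 0.208 and 0.158 CPM. *Ly6g* had 2 counts in all 12 mice. Of 6 reactive astrocyte markers 3 were lower, with a median of -0.79 (summed level 1223 to 3167 CPM in WT, 496 to 2171 CPM in *Tet2*-KO).

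Of 7 T cell markers 4 could be tested, and all 4 were lower (summed level over the 7 of 12.7 to 18.4 CPM in WT, 6.66 to 11.98 CPM in *Tet2*-KO). Of 6 B and plasma cell markers 3 could be tested and 2 were lower (5.61 to 12.9 CPM and 3.16 to 6.48 CPM). The 5 fibroblast markers were lower too (488 to 1178 CPM and 88.2 to 639 CPM), and the 6 neuron markers were higher (3156 to 4389 CPM and 4058 to 5298 CPM). None of the 5 oligodendrocyte, 5 mural, 4 choroid plexus and 4 cholinergic neuron markers reached an unadjusted p below 0.05. Of 6 astrocyte markers 1 was higher, of 5 endothelial markers 2 were lower and of 4 oligodendrocyte precursor markers 2 were lower. Of 5 striatal neuron and 3 red blood cell markers 1 each was higher. The 1 NK cell marker tested, of 4, did not reach that level. No marker in these lists had a total count of 0. The part of these cell types in the results below was not tested. In bulk tissue fewer cells of a type and less RNA per cell cannot be told apart. By staining of brain sections at the same time after stroke, the paper found similar numbers of macrophages and of T cells with either marrow. Those cell counts were not compared with the marker levels here.

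Per kilobase of exon, which allows genes to be compared, the levels of the 37 genes spanned from 0.166 ± 0.0800 CPM per kb (SD, n = 6 WT mice) for *Tnfrsf13c*, the BAFF receptor of B cells, to 28.3 ± 2.06 for *Tnfrsf21*, the death receptor 6 of neural cells. *Tnfrsf1a* (17.0 ± 4.90), *Tnfrsf1b* (14.9 ± 5.19) and *Tnfrsf19* (14.6 ± 0.765) followed, and these 3 overlapped within their SDs. Next came *Ltbr* (8.16 ± 2.34), *Tnfsf12* (7.94 ± 2.00) and *Tnfrsf18* (7.27 ± 0.425), which overlapped as well. *Tnfsf12* was the most abundant ligand per length, and *Tnf* itself was at 1.46 ± 0.505 CPM per kb in the WT mice and 0.680 ± 0.389 in the *Tet2*-KO mice.

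**Figure D2:**
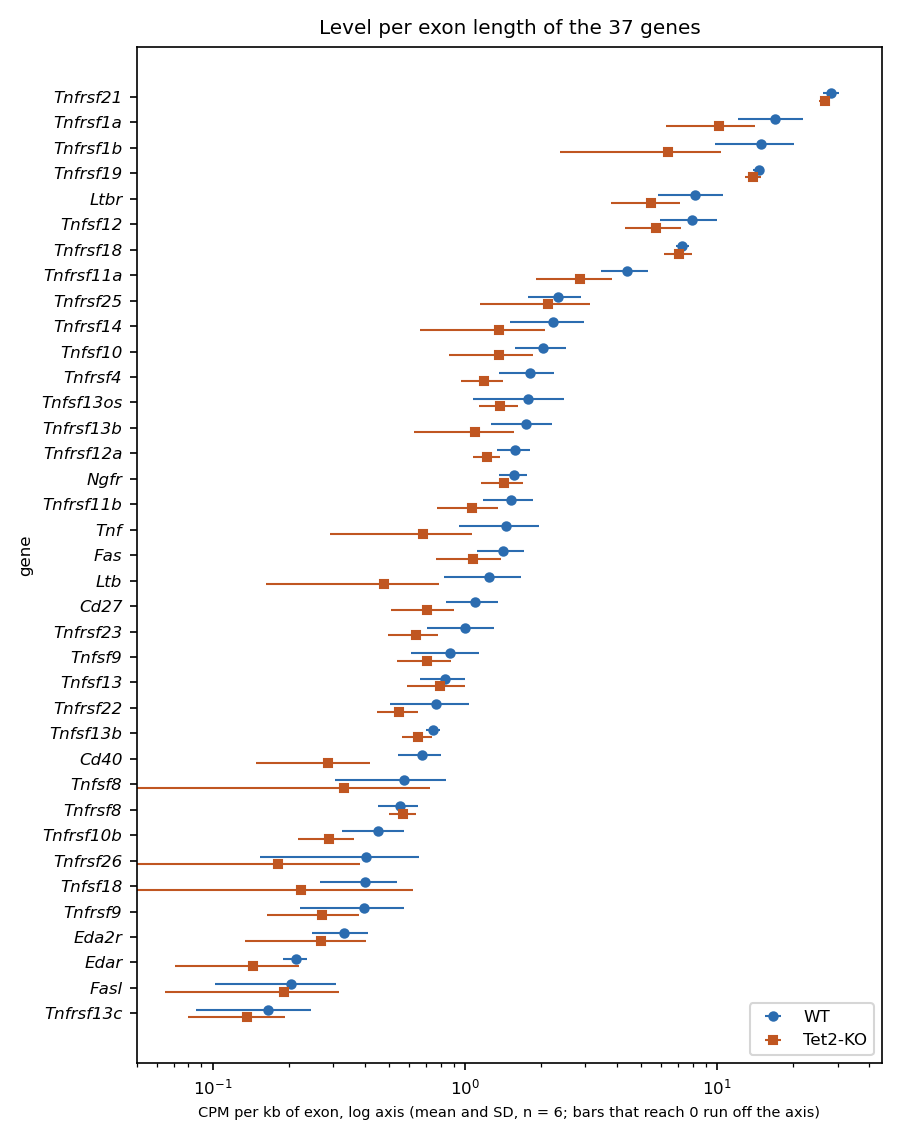
Level per kilobase of exon (CPM per kb, log axis) of the 37 members (y axis, ordered by the WT mean), with the mean and SD of the 6 WT mice (circles) and the 6 *Tet2*-KO mice (squares). *Tnfrsf21* is at the top and *Tnfrsf13c* at the bottom, and the SD bars of *Tnfsf8*, *Tnfrsf26* and *Tnfsf18* in the *Tet2*-KO group run off the axis.

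Among the ligands, 8 could be tested and 4 were lower at an unadjusted p below 0.05 (*Tnf*, *Ltb*, *Tnfsf10* and *Tnfsf12*), where 12.2% of all genes were lower. The median log2 fold change over the 8 was -0.54. *Tnf*, the cytokine that gives the family its name, was at 1.57 (lowest), 2.17 (median) and 3.95 (highest) CPM in the WT mice and at 0.248, 1.16 and 1.80 CPM in the *Tet2*-KO mice. All 6 *Tet2*-KO mice were below the WT median, and 3 of them were below every WT mouse. Its log2 fold change was -1.12 ± 0.35 (SE; adjusted edgeR p = 0.124, exact permutation p = 0.00866), or -1.28 without *Tet2*-KO replicate 5 and -0.91 on leaving out WT replicate 2.

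*Ltb*, lymphotoxin beta, anchors lymphotoxin alpha to the cell surface and signals through the lymphotoxin beta receptor. *Ltb* was at 0.952, 1.91 and 2.63 CPM (lowest, median and highest) in the WT mice and at 0.186, 0.686 and 1.57 CPM in the *Tet2*-KO mice, and 5 of the 6 *Tet2*-KO values lay under the WT range. Its log2 fold change was the lowest of the 34 members, -1.41 ± 0.35 (SE; adjusted edgeR p = 0.110, exact permutation p = 0.00649), or -1.72 without *Tet2*-KO replicate 5 and -1.31 on leaving out WT replicate 2. Both genes rest on few reads: the lowest *Tet2*-KO mouse had 3 counts of *Ltb* and 4 of *Tnf*. *Lta*, the lymphotoxin alpha gene beside them, had 17 counts in WT mice and 18 in *Tet2*-KO mice, under the minimum of 50.

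*Ltb* and *Tnf* lie 3061 bases apart on chromosome 17 (chr17:35194439-35196320, + strand, and chr17:35199381-35202007, - strand, GRCm38), and both had estimates below 0. Their promoter windows from RefSeq (GRCm38.p6, 250 bases before the gene start to 50 after it, gene strand, 5′ to 3′) are shown to compare these neighbours, with matches to the motifs searched in capitals. The windows are chr17:35194257-35194556 for *Ltb* and chr17:35201958-35202257 for *Tnf*.
Ltb: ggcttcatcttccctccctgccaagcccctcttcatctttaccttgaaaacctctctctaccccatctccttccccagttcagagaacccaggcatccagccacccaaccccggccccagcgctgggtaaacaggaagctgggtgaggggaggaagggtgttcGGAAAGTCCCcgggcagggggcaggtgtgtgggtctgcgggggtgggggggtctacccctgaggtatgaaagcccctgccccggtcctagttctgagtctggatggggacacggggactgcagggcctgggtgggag
Tnf: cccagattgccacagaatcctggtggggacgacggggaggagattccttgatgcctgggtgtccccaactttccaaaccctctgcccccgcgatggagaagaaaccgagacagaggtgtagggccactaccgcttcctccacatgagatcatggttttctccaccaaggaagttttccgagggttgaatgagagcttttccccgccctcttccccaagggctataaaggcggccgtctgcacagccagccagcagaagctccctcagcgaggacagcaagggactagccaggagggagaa

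Both strands were searched for the NF-kB consensus, the AP-1 element TGANTCA, the PU.1 core GAGGAAGT and the interferon response element GAAANNGAAA, and matches to different motifs did not overlap in these windows. The *Ltb* window held 1 NF-kB match, GGAAAGTCCC (the consensus read on the opposite strand), from 87 to 78 bases before the gene start. No searched letters were found in the *Tnf* window. Of the 37 genes 29 had a window, and an NF-kB match stood in those of 4 (*Ltb*, *Tnfrsf8*, *Tnfrsf9* and *Tnfrsf25*), where 8.46% of all 32851 windows held one. AP-1 matches stood in 6 of the 33 windows, from 5 genes (7.81% of all windows). A PU.1 match stood in 1 window (3.2%) and interferon response elements in 3 (3.44%).

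*Tnfsf10* encodes TRAIL, which triggers apoptosis through its death receptor. Its level was 9.10, 10.1 and 15.6 CPM (lowest, median and highest) in the WT mice and 4.46, 6.79 and 11.6 CPM in the *Tet2*-KO mice, and 5 of 6 *Tet2*-KO values lay under the WT range. Its log2 fold change was -0.60 ± 0.21 (adjusted edgeR p = 0.145, exact permutation p = 0.0260), or -0.78 without *Tet2*-KO replicate 5 and -0.46 on leaving out WT replicate 2. *Tnfsf12*, which encodes TWEAK, a ligand with roles in tissue repair and angiogenesis, was at 8.98, 11.7 and 17.6 CPM in the WT mice and at 5.95, 8.84 and 11.4 CPM in the *Tet2*-KO mice. The groups overlapped for *Tnfsf12* (log2 fold change -0.47 ± 0.18, adjusted edgeR p = 0.159, exact permutation p = 0.0498), with all 6 *Tet2*-KO mice below the WT median and an unadjusted edgeR p of 0.0516 without WT replicate 2. *Tnfsf12* shares exon bases with the readthrough gene *Tnfsfm13*, so its counts are uncertain.

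The other ligands tested did not reach an unadjusted p of 0.05. *Tnfsf8*, the CD30 ligand of activated lymphocytes, was at 1.19, 2.09 and 3.95 CPM (lowest, median and highest) in the WT mice and at 0.404, 0.699 and 4.32 CPM in the *Tet2*-KO mice. The highest *Tet2*-KO value of *Tnfsf8*, from replicate 5, was above every WT mouse and the other 5 were below every WT mouse. The log2 fold change of *Tnfsf8* was -0.87 ± 0.56 with all mice (adjusted edgeR p = 0.373, exact permutation p = 0.0649) and -1.69 without *Tet2*-KO replicate 5 (adjusted p = 0.0130, with 0.0123 to 0.652 over all alternatives). On leaving out WT replicate 2 it was -0.61. *Tnfsf13b* (BAFF) and *Tnfsf13* (APRIL) sustain B and plasma cells. *Tnfsf13b* was at 4.74, 5.07 and 5.67 CPM in the WT mice and at 3.59, 4.51 and 5.34 CPM in the *Tet2*-KO mice (log2 fold change -0.20 ± 0.11, adjusted edgeR p = 0.269, exact permutation p = 0.0433), with 4 of 6 *Tet2*-KO values under the WT range. *Tnfsf13* was at 0.862, 1.39 and 1.69 CPM in the WT mice and at 0.744, 1.31 and 1.75 CPM in the *Tet2*-KO mice, with overlapping groups (log2 fold change -0.07 ± 0.21, adjusted edgeR p = 0.884, exact permutation p = 0.678). *Tnfsf9*, the 4-1BB ligand, had a log2 fold change of -0.28 ± 0.23, and its exons overlap the gene *Gm11110* on the opposite strand. Reads of *Tnfsf13* cannot be told from those of *Tnfsfm13*, nor from those of the antisense RNA *Tnfsf13os* if strand was not used, which itself had a log2 fold change of -0.38 ± 0.24.

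Of the receptors, decoys included, 25 could be tested and 14 were lower at an unadjusted p below 0.05, where 12.2% of all genes were lower. The median log2 fold change over the 25 was -0.58. The remaining member tested was the antisense RNA *Tnfsf13os*. *Tnfrsf1a* encodes TNF receptor 1, a death domain receptor found on most cells. Its level was 34.7, 40.1 and 68.9 CPM (lowest, median and highest) in the WT mice and 14.8, 22.7 and 41.2 CPM in the *Tet2*-KO mice, and 4 of 6 *Tet2*-KO values lay under the WT range. The log2 fold change of *Tnfrsf1a* was -0.74 ± 0.26 (adjusted edgeR p = 0.149, exact permutation p = 0.0195), or -0.90 without *Tet2*-KO replicate 5 and -0.57 on leaving out WT replicate 2.

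*Tnfrsf1b* encodes TNF receptor 2, which lacks a death domain and is found mainly on immune, microglial and endothelial cells. It was at 42.5, 50.9 and 95.0 CPM (lowest, median and highest) in the WT mice and at 9.11, 19.98 and 50.1 CPM in the *Tet2*-KO mice. Only *Tet2*-KO replicate 5 reached the WT range. For *Tnfrsf1b* the log2 fold change was -1.24 ± 0.39 (adjusted edgeR p = 0.132, exact permutation p = 0.00866), or -1.56 without *Tet2*-KO replicate 5 and -1.03 on leaving out WT replicate 2.

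The ratio of *Tnfrsf1b* to *Tnfrsf1a* in each mouse, per length, was compared after the values of both genes had been seen, as 1 of 4 such ratios. It was 0.869 ± 0.0577 (SD, n = 6) in the WT mice, with a range of 0.779 to 0.937, and 0.583 ± 0.157 in the *Tet2*-KO mice, with a range of 0.419 to 0.825. *Tet2*-KO replicate 5 had the highest *Tet2*-KO ratio, and the other 5 lay under the WT range. The mean log2 ratio differed by -0.62 between the groups (exact two-sided permutation test, p = 0.00433, adjusted over the 4 ratios p = 0.0173), and on leaving out any 1 mouse the difference lay between -0.72 and -0.53. The ratios of *Tnfrsf11a* to *Tnfrsf11b* (2.93 ± 0.523 in WT, 2.71 ± 0.545 in *Tet2*-KO), *Tnfsf12* to *Tnfrsf12a* (5.05 ± 0.953 and 4.68 ± 1.18) and *Tnfsf10* to *Tnfrsf10b* (4.63 ± 0.632 and 4.64 ± 0.820) differed by less than the spread between mice, with exact permutation p from 0.504 to 0.978.

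**Figure D3:**
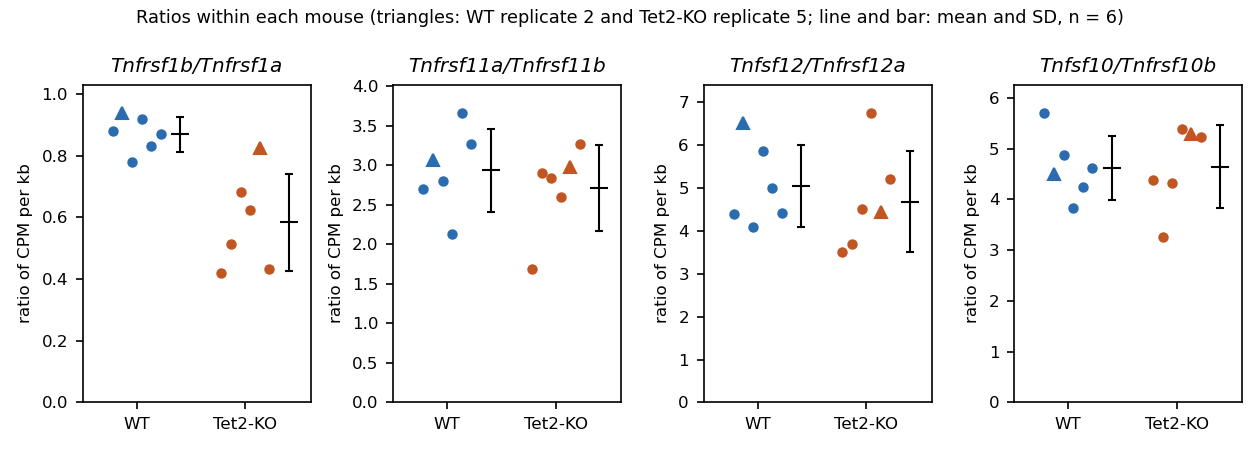
Ratio of 2 members' levels (CPM per kb of exon, y axis) within each mouse for 4 receptor or ligand pairs, with WT on the left and *Tet2*-KO on the right of each panel, 1 point per mouse and the mean and SD of each group. For *Tnfrsf1b*/*Tnfrsf1a* the WT mice lie between 0.779 and 0.937 and the *Tet2*-KO mice between 0.419 and 0.825, and in the other panels the groups share most of their range.

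The promoter windows of these receptors (RefSeq, GRCm38.p6, gene strand) are shown because the receptors bind the same ligand and their genes had estimates of different size. They are chr4:145246821-145247120 (- strand) for *Tnfrsf1b* and chr6:125349473-125349772 (+ strand) for *Tnfrsf1a*. The capitals mark a match to the interferon response element on the opposite strand, from 10 to 1 bases before the *Tnfrsf1b* start, and none of the motifs searched was found in the *Tnfrsf1a* window.
Tnfrsf1b: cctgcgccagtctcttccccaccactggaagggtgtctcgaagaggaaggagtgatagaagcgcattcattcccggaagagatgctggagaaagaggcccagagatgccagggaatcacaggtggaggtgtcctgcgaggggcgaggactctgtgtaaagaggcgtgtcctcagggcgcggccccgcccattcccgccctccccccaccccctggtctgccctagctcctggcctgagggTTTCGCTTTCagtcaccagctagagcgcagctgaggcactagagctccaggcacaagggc
Tnfrsf1a: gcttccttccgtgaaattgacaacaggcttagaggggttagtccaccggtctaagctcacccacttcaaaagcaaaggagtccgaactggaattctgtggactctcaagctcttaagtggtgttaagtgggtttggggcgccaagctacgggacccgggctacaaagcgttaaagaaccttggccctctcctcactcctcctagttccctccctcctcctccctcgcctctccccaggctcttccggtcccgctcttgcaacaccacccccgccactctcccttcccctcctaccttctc

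*Cd40*, the costimulatory receptor of B cells, macrophages and microglia that CD40 ligand engages, had the smallest p of the family. Its level was 1.87, 2.23 and 3.08 CPM (lowest, median and highest) in the WT mice and 0.434, 0.913 and 1.73 CPM in the *Tet2*-KO mice. *Cd40* was the only one of the 34 members in which the groups did not overlap, with every *Tet2*-KO value under the WT range, as was so for 0.641% of all genes tested. The log2 fold change of *Cd40* was -1.26 ± 0.26 (adjusted edgeR p = 0.104, exact permutation p = 0.00216), and its adjusted p was 0.00213 in DESeq2, 0.00551 in limma-voom and 0.00557 without *Tet2*-KO replicate 5, with a range of 0.00213 to 0.220 over all alternatives. Its ligand gene *Cd40lg* had 2 counts in all 12 mice together.

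**Figure D4:**
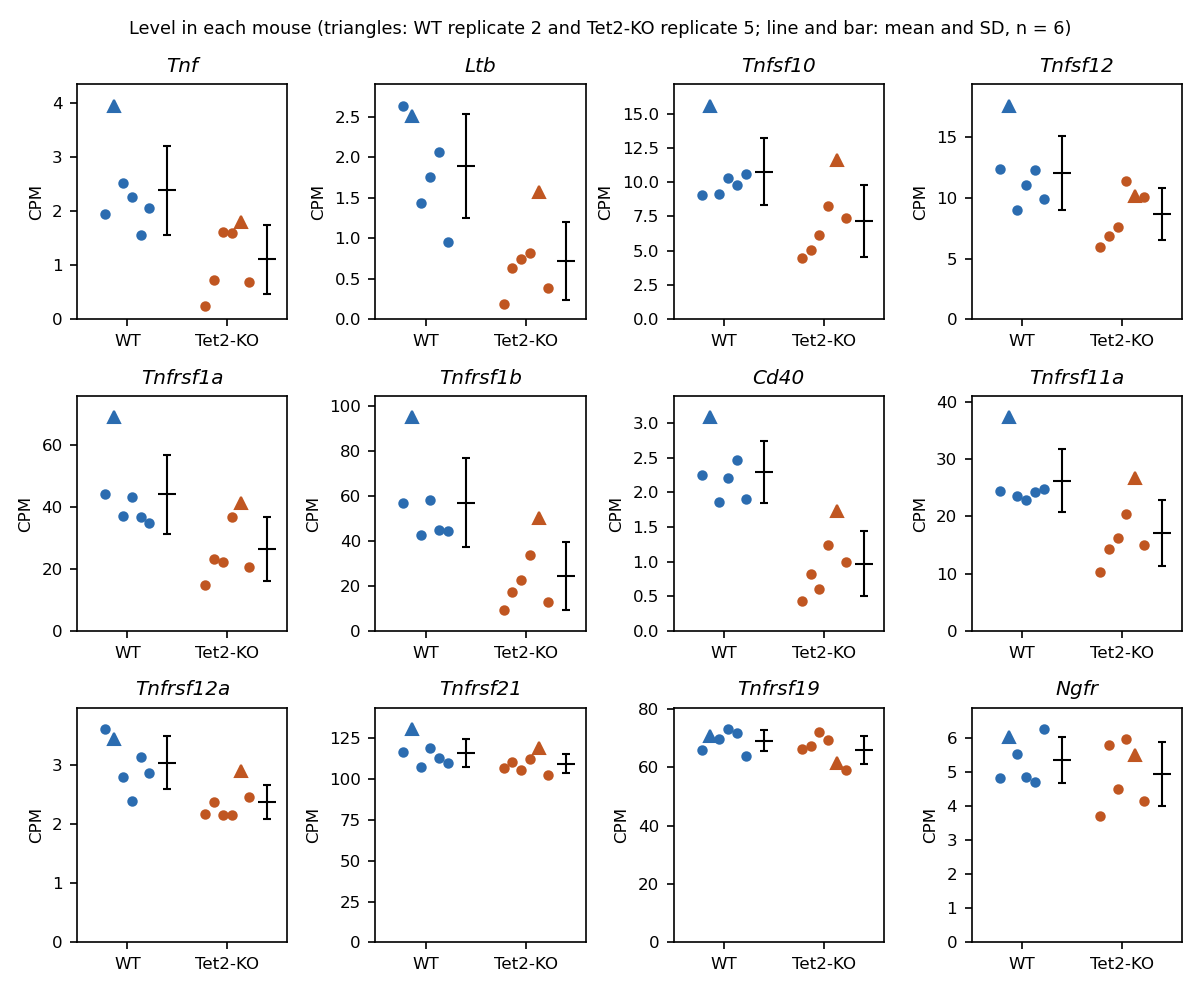
Level (CPM, y axis from 0) of 12 members in each mouse, with WT on the left and *Tet2*-KO on the right of each panel, triangles for WT replicate 2 and *Tet2*-KO replicate 5, and the mean and SD of each group. *Cd40* is the only panel in which every *Tet2*-KO mouse is below every WT mouse, and in the *Tnfrsf21*, *Tnfrsf19* and *Ngfr* panels the groups overlap.

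The receptors of lymphotoxin and LIGHT had estimates below 0 and lost their unadjusted call on leaving out WT replicate 2. *Ltbr*, the lymphotoxin beta receptor, was at 13.9, 17.9 and 28.6 CPM (lowest, median and highest) in the WT mice and at 6.69, 13.8 and 17.1 CPM in the *Tet2*-KO mice (log2 fold change -0.58 ± 0.24, adjusted edgeR p = 0.177, exact permutation p = 0.0454). All 6 *Tet2*-KO mice were below the WT median of *Ltbr*. *Tnfrsf14*, the herpesvirus entry mediator that LIGHT binds, was at 2.23, 2.87 and 4.81 CPM in the WT mice and at 0.744, 1.73 and 3.69 CPM in the *Tet2*-KO mice (log2 fold change -0.73 ± 0.30, adjusted edgeR p = 0.176, exact permutation p = 0.0476). For *Tnfrsf14* the estimate was -0.98 without *Tet2*-KO replicate 5 and -0.58 on leaving out WT replicate 2. Without WT replicate 2 the unadjusted edgeR p was 0.0814 for *Ltbr* and 0.0749 for *Tnfrsf14*. LIGHT itself, *Tnfsf14*, was under the minimum count, with 35 counts in WT mice and 5 in *Tet2*-KO mice (exact two-sided permutation test, p = 0.0108, not adjusted).

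The costimulatory receptors of T cells were followed through *Tnfrsf4* and *Cd27*. *Tnfrsf4* (OX40) was at 1.72, 2.48 and 3.44 CPM (lowest, median and highest) in the WT mice and at 1.28, 1.56 and 2.11 CPM in the *Tet2*-KO mice (log2 fold change -0.58 ± 0.19, adjusted edgeR p = 0.125, exact permutation p = 0.0130). *Cd27* was at 1.90, 2.42 and 3.66 CPM in the WT mice and at 0.929, 1.66 and 2.26 CPM in the *Tet2*-KO mice (log2 fold change -0.63 ± 0.21, adjusted edgeR p = 0.127, exact permutation p = 0.00866). For both genes all 6 *Tet2*-KO mice were below the WT median, 4 of them under the WT range, and the T cell markers above were lower in the *Tet2*-KO group. Their ligands were nearly absent from the counts: *Cd70*, the CD27 ligand, had 17 counts in all. *Tnfsf4*, the OX40 ligand, had 6 counts in WT mice and 0 in *Tet2*-KO mice, where a count of 0 allows up to 0.031 CPM over the group (counting error only), so no fold is given.

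Other costimulatory receptors did not reach an unadjusted p of 0.05. *Tnfrsf9* (4-1BB) had a log2 fold change of -0.55 ± 0.31 (-0.30 without WT replicate 2), *Tnfrsf18* (GITR) of -0.05 ± 0.09, *Tnfrsf25* (death receptor 3) of -0.11 ± 0.29 and *Tnfrsf8* (CD30) of 0.05 ± 0.15. *Tnfrsf8* was the only member with an estimate above 0. Its levels of 1.43 to 2.30 CPM in the WT mice and 1.65 to 2.37 CPM in the *Tet2*-KO mice overlapped. Exons of *Tnfrsf18* overlap a gene on the opposite strand, and the strand setting of the counting is not given in the sources used here.

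*Tnfrsf13b* encodes TACI, a receptor for BAFF and APRIL on B cells and plasma cells. It was at 3.44, 4.60 and 7.39 CPM (lowest, median and highest) in the WT mice and at 1.30, 2.89 and 4.71 CPM in the *Tet2*-KO mice, and 5 of 6 *Tet2*-KO mice were below the WT median. The log2 fold change of *Tnfrsf13b* was -0.67 ± 0.27 (adjusted edgeR p = 0.165, exact permutation p = 0.0346), with an unadjusted edgeR p of 0.0638 without WT replicate 2. The other receptors of these ligands, *Tnfrsf13c* with 27 counts in each group and *Tnfrsf17* with 13 in the WT and 16 in the *Tet2*-KO group, were too low for the test.

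*Tnfrsf11a* encodes RANK, the receptor that drives osteoclast formation and is also found on myeloid cells. It was at 22.9, 24.4 and 37.3 CPM (lowest, median and highest) in the WT mice and at 10.2, 15.6 and 26.8 CPM in the *Tet2*-KO mice. Only *Tet2*-KO replicate 5 reached the WT range. For *Tnfrsf11a* the log2 fold change was -0.62 ± 0.21 (adjusted edgeR p = 0.135, exact permutation p = 0.0152), or -0.78 without *Tet2*-KO replicate 5 and -0.49 on leaving out WT replicate 2. Its decoy *Tnfrsf11b*, osteoprotegerin, which binds RANK ligand and TRAIL, was at 3.13, 4.12 and 5.74 CPM in the WT mice and at 2.15, 2.77 and 4.24 CPM in the *Tet2*-KO mice (log2 fold change -0.53 ± 0.19, adjusted edgeR p = 0.137, exact permutation p = 0.0303). RANK ligand, *Tnfsf11*, had 23 counts in WT mice and 11 in *Tet2*-KO mice.

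The TRAIL receptors comprise the death receptor *Tnfrsf10b* and the mouse decoys *Tnfrsf22* and *Tnfrsf23*. *Tnfrsf10b* was at 1.66, 2.39 and 3.59 CPM (lowest, median and highest) in the WT mice and at 1.05, 1.54 and 2.28 CPM in the *Tet2*-KO mice (log2 fold change -0.65 ± 0.21, adjusted edgeR p = 0.124, exact permutation p = 0.0152), with 5 of 6 *Tet2*-KO values under the WT range. *Tnfrsf23* was at 2.59, 3.89 and 6.03 CPM in the WT mice and at 1.80, 2.38 and 3.45 CPM in the *Tet2*-KO mice (log2 fold change -0.65 ± 0.20, adjusted edgeR p = 0.123, exact permutation p = 0.0130). The ligand, its death receptor and its decoys all had estimates below 0, as did 33 of the 34 members tested. *Tnfrsf22* was at 2.06, 3.08 and 5.24 CPM in the WT mice and at 1.82, 2.32 and 2.87 CPM in the *Tet2*-KO mice (log2 fold change -0.49 ± 0.21, adjusted edgeR p = 0.177, exact permutation p = 0.0714). For *Tnfrsf22* the estimate was -0.30 and the unadjusted edgeR p 0.104 without WT replicate 2.

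*Tnfrsf26*, a mouse homologue beside these decoys on chromosome 7, had 1 to 23 counts per *Tet2*-KO mouse. It was at 0.476, 1.07 and 2.80 CPM (lowest, median and highest) in the WT mice and at 0.0620, 0.400 and 1.80 CPM in the *Tet2*-KO mice. For *Tnfrsf26* the log2 fold change was -1.26 ± 0.59 (adjusted edgeR p = 0.222, exact permutation p = 0.0563), or -1.91 without *Tet2*-KO replicate 5, its highest *Tet2*-KO mouse. Exons of *Tnfrsf23* and *Tnfrsf26* overlap a gene on the opposite strand.

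*Tnfrsf12a* encodes Fn14, the receptor of TWEAK, which is induced by injury. It was at 2.40, 2.99 and 3.61 CPM (lowest, median and highest) in the WT mice and at 2.15, 2.28 and 2.90 CPM in the *Tet2*-KO mice, with all 6 *Tet2*-KO mice below the WT median. Its log2 fold change, -0.36 ± 0.13 (adjusted edgeR p = 0.149, exact permutation p = 0.0195), was the closest to 0 of the 18. *Fas*, the death receptor that Fas ligand binds, had a log2 fold change of -0.39 ± 0.19 (adjusted edgeR p = 0.247, exact permutation p = 0.0844). *Fasl* had 32 counts in WT mice and 35 in *Tet2*-KO mice.

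*Tnfrsf21*, *Tnfrsf19* and *Ngfr* are receptors known from neurons and glia. *Tnfrsf21* was at 107, 115 and 131 CPM (lowest, median and highest) in the WT mice and at 102, 109 and 119 CPM in the *Tet2*-KO mice (log2 fold change -0.08 ± 0.05, adjusted edgeR p = 0.369, exact permutation p = 0.147). *Tnfrsf19*, known as TROY, was at 63.7, 70.1 and 73.2 CPM in the WT mice and at 59.1, 66.9 and 72.0 CPM in the *Tet2*-KO mice (log2 fold change -0.07 ± 0.06, adjusted edgeR p = 0.497, exact permutation p = 0.229). The groups overlapped for both, and these were the members with the smallest standard errors. *Ngfr*, the p75 neurotrophin receptor, was at 4.70, 5.20 and 6.27 CPM in the WT mice and at 3.72, 5.00 and 5.97 CPM in the *Tet2*-KO mice (log2 fold change -0.11 ± 0.13, adjusted edgeR p = 0.655, exact permutation p = 0.346). *Edar* and *Eda2r*, receptors of ectodysplasin, had log2 fold changes of -0.59 ± 0.30 and -0.30 ± 0.30, and without WT replicate 2 that of *Eda2r* was -0.16.

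**Figure D5:**
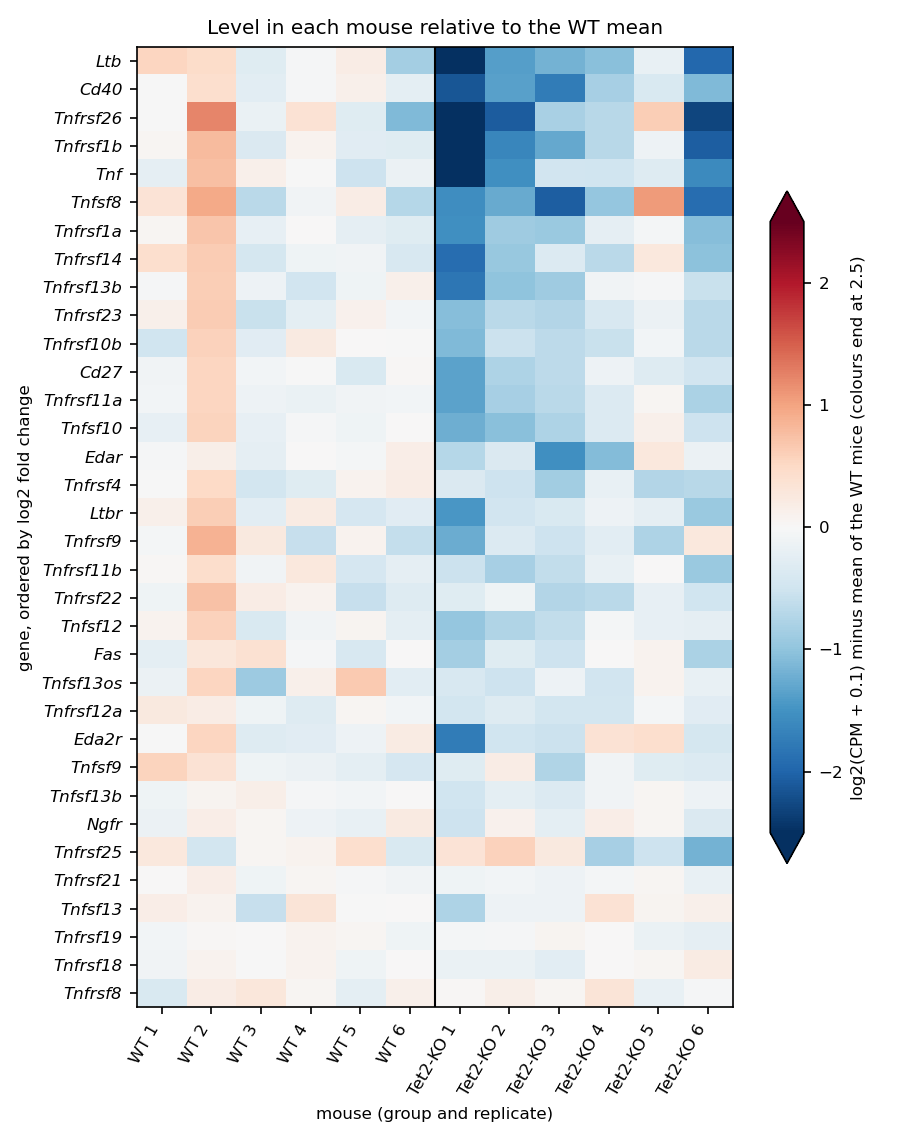
Level of the 34 members tested (y axis, ordered by log2 fold change) in each mouse (x axis), as log2(CPM + 0.1) minus the mean of the 6 WT mice, with colours ending at 2.5 in either direction. *Tet2*-KO replicate 1 is the lowest *Tet2*-KO mouse in 21 of 34 genes and replicate 5 the highest in 21 of 34, and WT replicate 2 is the highest WT mouse in 22 of 34.

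The 3 genes kept by the total count but too low for the edgeR test, and those just under the minimum, complete the family. *Tnfsf18*, the GITR ligand, with 67 counts in WT mice and 39 in *Tet2*-KO mice, was at 0.376, 0.911 and 1.08 CPM (lowest, median and highest) in the WT mice and at 0, 0.111 and 2.12 CPM in the *Tet2*-KO mice (exact two-sided permutation test, p = 0.0476, not adjusted). In the mouse at 0, a count of 0 allows up to 0.202 CPM. The highest of all 12 mice for *Tnfsf18* was *Tet2*-KO replicate 5, and the other 5 of that group lay under the WT range. *Tnfrsf13c*, with 54 counts in total, was the gene just inside the minimum of 50, and *Tnfsf14*, with 40, was just outside it. *Tnfsf15*, the ligand of death receptor 3, had 25 counts in total.

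Members of a pair or cluster on the same chromosome did not always have the same estimate. *Tnfrsf1b* and *Tnfrsf8* are neighbours on chromosome 4, with 20267 bases between them, and had log2 fold changes of -1.24 and 0.05. *Tnfrsf4* and *Tnfrsf18*, 9552 bases apart on the same chromosome, had log2 fold changes of -0.58 and -0.05. On chromosome 6, *Cd27*, *Ltbr* and *Tnfrsf1a* had estimates of -0.63, -0.58 and -0.74, and on chromosome 7, *Tnfrsf26*, *Tnfrsf22* and *Tnfrsf23* had estimates of -1.26, -0.49 and -0.65. The differences between neighbours were not tested.

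The genes that carry the signal of these receptors were counted from a list of 46: adaptors, kinases and death effectors near the receptors, proteases that shed TNF, and targets of NF-kB. All 46 could be tested, and 25 were lower in the *Tet2*-KO mice at an unadjusted p below 0.05 (12.2% of all genes). At that level 0 were higher (10.8% of all genes), and none passed after adjustment in edgeR. The median log2 fold change of the 46 was -0.21, against 0.01 for all genes. After adjustment DESeq2 called 10 lower (3.71% of all genes) and limma-voom 16 (7.01%). Without *Tet2*-KO replicate 5 edgeR called 16 after adjustment (7.3%), and without WT replicate 2 the unadjusted count was 16 (7.92%). By part of the pathway, 17 of 33 receptor-proximal genes, 2 of 4 shedding genes and 6 of 9 NF-kB targets were lower at an unadjusted p below 0.05, with median log2 fold changes of -0.17, -0.40 and -0.98.

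The 4 signalling genes with the smallest p were *Relb*, *Nfkbie*, *Traf1* and *Adam17*. *Relb*, an NF-kB subunit of the alternative pathway that CD40 and the lymphotoxin beta receptor use, was at 11.3, 14.5 and 20.4 CPM (lowest, median and highest) in the WT mice and at 5.95, 7.94 and 10.4 CPM in the *Tet2*-KO mice (log2 fold change -0.86 ± 0.15, adjusted p = 0.0816 in edgeR), with no overlap between the groups. The inhibitor *Nfkbie* was at 5.95, 7.90 and 12.7 CPM in the WT mice and at 2.29, 3.63 and 5.76 CPM in the *Tet2*-KO mice. Its log2 fold change was -1.09 ± 0.23 (adjusted p = 0.110 in edgeR), and its groups did not overlap either. *Icam1* and *Ikbkb*, also on the list, showed the same separation, with all *Tet2*-KO values under the WT range. Such a separation was found for 0.641% of all genes tested. *Traf1*, an adaptor of TNF receptor 2, was at 5.82, 8.49 and 15.99 CPM in the WT mice and at 1.80, 3.31 and 5.88 CPM in the *Tet2*-KO mice (log2 fold change -1.36 ± 0.31, adjusted p = 0.110 in edgeR), with 5 of 6 *Tet2*-KO values under the WT range.

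*Adam17*, the protease that releases soluble TNF and sheds its receptors, was at 38.4, 40.5 and 62.8 CPM (lowest, median and highest) in the WT mice and at 22.7, 28.3 and 39.6 CPM in the *Tet2*-KO mice (log2 fold change -0.60 ± 0.15, adjusted p = 0.112 in edgeR), with 5 of 6 *Tet2*-KO values under the WT range. No signalling gene was higher at an unadjusted p below 0.05. The 4 with the smallest p among estimates above 0 were *Map3k5* (log2 fold change 0.12 ± 0.07), *Cyld* (0.09 ± 0.06), *Tab3* (0.11 ± 0.08) and *Sod2* (0.05 ± 0.06), with adjusted p of 0.323 to 0.638 in edgeR. Among 3 relatives outside the naming rule, *Edaradd*, the EDAR adaptor, was lower at an unadjusted p below 0.05 (log2 fold change -0.56 ± 0.25), and *Relt* and *Eda* had estimates of 0.08 ± 0.07 and 0.03 ± 0.09.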

How the data were processed

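Brains of 12 mice, 6 per group, were profiled by paired-end RNA-sequencing after depletion of ribosomal RNA. The authors trimmed reads with Trimmomatic 0.36, aligned them with STAR 2.5.2b (mm10 in the submitters' processing notes) and counted unique reads in exons with featureCounts (Subread 1.5.2). The deposited values are raw counts per gene. The annotation and strand setting are not given in the sources used here. Symbols, positions and exon lengths came from GENCODE M21 (GRCm38), for 48970 of 49315 identifiers, and promoter windows from RefSeq.

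Genes passing filterByExpr were scaled by TMM and compared in edgeR 4.0.16 (R 4.3.3; quasi-likelihood F test, robust fit, no covariates), with Benjamini-Hochberg adjustment over 20290 genes and a threshold of 0.05. Single values were compared by exact permutation of log2(CPM + 0.1). The edgeR, DESeq2 and limma-voom tests were tried on simulated counts, and the permutation test was not. Alternatives were DESeq2 1.42.0, limma-voom (limma 3.58.1), other scalings and filters, a replicate block and each mouse left out. Total counts of 12000261 to 21049763 per mouse limit members with few reads.

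Named in full were members with an unadjusted p below 0.05, their partners, *Tnf*, *Ngfr*, *Tnfrsf19* and *Tnfrsf21*, and in each direction the 4 signalling genes of smallest p. Members and lists were chosen with earlier results of these data known.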

Additional observations from a re-analysis of the deposited data

Results flagged for a closer look

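In 8 of the 74 groups of 6 mice tested (37 members in each group), the highest mouse was separated from the next by more than Dixon's criterion allows for 6 samples, where chance gives about 1 in 20, and the members share the same libraries. WT replicate 2 was such a mouse for *Tnfrsf1b* (95.0 CPM, the next WT mouse at 58.3), *Tnfrsf1a* (68.9 CPM, the next at 44.0), *Tnfrsf11a* (37.3 CPM, the next at 24.8), *Tnfsf10* (15.6 CPM, the next at 10.6) and *Cd27* (3.66 CPM, the next at 2.54). *Tet2*-KO replicate 5 was such a mouse for *Tnfsf8* (4.32 CPM, the next *Tet2*-KO mouse at 0.977), *Tnfrsf26* (1.80 CPM, the next at 0.669) and *Tnfsf18* (2.12 CPM, the next at 0.36). The summed level of the monocyte and macrophage markers was also highest in these mice, at 91.4 CPM in WT replicate 2 and 59.3 CPM in *Tet2*-KO replicate 5, and the part of these cells in the separation was not tested.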

How the results depend on the processing

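Over the alternatives, the log2 fold changes of single members kept their direction and their side of the adjusted threshold in 626 of 669 cases, passed the threshold in 37 and turned sign in 6. In DESeq2, 4 members had no adjusted p and were counted as not passing. The adjusted threshold was passed by 0 members with all mice in edgeR, by 6 with DESeq2 and 10 with limma-voom, by 1 without a filter on low counts (*Cd40*), by 0 to 13 with each mouse left out and by 7 when WT replicate 2 and *Tet2*-KO replicate 5 were both left out, an alternative chosen after seeing the data. Of the signalling genes 0 passed with all mice, 10 with DESeq2, 16 with limma-voom, 1 without a filter, 0 to 16 with each mouse left out and 11 without both mice, and their unadjusted count ranged from 16 to 29 with each mouse left out. The cause of these differences was not tested. The estimates that turned sign were all near 0. With each mouse left out, *Tnfrsf25* ranged from -0.297 to 0.0339 (above 0 without *Tet2*-KO replicate 4, at 0.0141, or 6), *Tnfrsf8* from -0.0163 to 0.114 (below 0 without WT replicate 1 or, at -0.0119, *Tet2*-KO replicate 4) and *Tnfsf13* from -0.189 to 0.0520 (above 0 without WT replicate 4, at 0.00931, or *Tet2*-KO replicate 1). The log2 difference of *Tnfrsf11a*/*Tnfrsf11b* ranged from -0.212 to 0.00657 and that of *Tnfsf10*/*Tnfrsf10b* from -0.0568 to 0.0934. Under upper quartile scaling, which moved the median of all genes to 0.04, 33 members still had estimates below 0 and their median was -0.53. A minimum total of 10 or of 100 in place of 50 would keep 43 or 35 genes.

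Replicate numbers are shared by the groups, but same-numbered mice did not deviate together (correlations from -0.17 to 0.23, with 1 of 6 numbers the best match of its own). The main test took the mice as unpaired, and whether same-numbered mice shared a cage or batch was not tested. With the replicate block, 18 members and 23 signalling genes were lower at an unadjusted p below 0.05 and 0 of either after adjustment. The share over all genes was not taken for this fit, so these counts have no background. Genes with a few reads per mouse, such as *Ltb* and *Tnf*, and those under the minimum, set the limit of what could be detected at this depth.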
